A study of Glycine max with 18 samples.

Results

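The 5 genes described here are the GID1b gibberellin (GA) receptors GID1b1 (Glyma.02G151100), GID1b2 (Glyma.10G022900) and GID1b3 (Glyma.03G148300) and the DELLA genes Glyma.05G045300 and Glyma.18G040000, which the study annotates as RGL1 and RGL2 types. They were listed by gene identifier with earlier results of these data known, and are 5 of the 56044 genes measured in each library. The study had already called Glyma.05G045300 lower with PBZ at 24 HAI from these libraries. Counts over the 5 genes are therefore a description and not those of a blind choice. Transcripts were sequenced in embryonic axes of soybean (Glycine max), cultivar BRS 284, from seeds imbibed with 200 µM paclobutrazol (PBZ, an inhibitor of the kaurene oxidase step of GA synthesis) or with water alone (control). Sampling times, in hours after imbibition (HAI), were 12, 24 and 36. Each of the 6 conditions had 3 libraries, 18 in all, and each sample drew on 3 plates of 20 seeds. All groups shared the cultivar, the tissue and the growth conditions, with a 12/12 h photoperiod. Harvests 12 h apart fell at opposite points of that light cycle. A change between neighbouring times thus cannot be told apart from a change of light phase. A pool of axes holds several tissues, so fewer cells of a type and less RNA per cell cannot be told apart.

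GID1 proteins are soluble GA receptors of the nucleus. A GID1 that has bound GA binds a DELLA protein, and the DELLA is then marked for destruction by the proteasome, which lifts its repression of growth and germination. PBZ keeps GA low, and with it DELLA proteins are stable. In eudicots the receptors fall into the GID1b and GID1ac groups, and Arabidopsis GID1b differs from the others in a higher affinity for GA. In Arabidopsis seeds RGL2 is the main DELLA repressor of germination, and in that species low GA raises GID1 transcripts. RGL1, RGA and GAI are further DELLA types of Arabidopsis, after which the soybean genes are annotated. Transcript level and protein level of a DELLA can part, since GA acts on the protein.

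Expression is given as the deposited RPKM, a read count scaled by transcript length and by the number of mapped reads. Levels of different genes are set side by side on this scale. Reads mapping to several places were dropped, which lowers genes with near-identical copies, and its effect on orders, shares and ratios between genes was not checked. The library kit the study names does not mark strand, and what the study's first-strand setting did to the values was not checked. Changes are differences of log2(RPKM + 0.1), on which a low gene changes less than its RPKM does, and were tested with limma. A gene was tested where either group averaged at least 1 RPKM. A gene with 1 of its 2 group means below that level thus entered only through its higher group, which set its direction. The limits were a Benjamini-Hochberg adjusted p of 0.05, called the adjusted p limit, and in addition a change of 1 on the log2 scale (2-fold), called both limits. The labels name replicates without saying what they share, and the study describes them as independent biological replicates. Comparisons between times and between treatments use the same libraries and are not independent of each other.

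Library facts bear on all 5 genes. Relative depth, read from the steps between low RPKM values, ran from 0.648 to 2.29 times the median library. A set of 63 genes, which the study picked from these libraries for their response to PBZ, took 4.43% to 7.37% of summed RPKM in the PBZ libraries at 24 HAI and 0.248% to 0.308% in the controls of that time. The same set took 0.732% in control replicate 2 at 12 HAI, against 7.59% and 11.4% in the other controls, and 5.03% in control replicate 3 at 36 HAI, against 0.187% and 0.223%. The reference gene F-box protein 2 (Glyma.02G273700) stayed between 8.46 and 12.7 RPKM over all 18 libraries and passed neither limit in any comparison of 2 groups. The other reference gene, Bic-C2 (Glyma.03G064800), was less steady, at 12.5 to 19.5 RPKM. It rose between 12 and 24 HAI by 0.46 in control axes (adjusted p = 0.00607), a step in which the receptors below fell. The root marker SHORT-ROOT (Glyma.01G194200) was present in every library at 1.30 to 4.33 RPKM and rose between 12 and 24 HAI by 0.95 in PBZ axes (adjusted p = 0.0104) and by 0.71 in control axes (adjusted p = 0.0051), a change whose part in the results below was not tested. Markers of cotyledon tissue were not used here.

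The 3 GID1b receptors shared a drop between 12 and 24 HAI, and none differed from control with PBZ past the test at any time. GID1b1 had 15.0, 14.7 and 14.1 RPKM with PBZ at 12 HAI, against 10.6, 15.0 and 12.1 RPKM in control. At 24 HAI it had 5.57, 5.06 and 4.91 RPKM with PBZ, against 6.89, 6.33 and 6.22 RPKM in control. At 36 HAI it had 7.26, 4.73 and 6.25 RPKM with PBZ, against 5.11, 4.41 and 5.11 RPKM in control. Every library at 24 and 36 HAI was thus below every library at 12 HAI, and PBZ and control overlapped at 12 and 36 HAI but not at 24 HAI. PBZ and control did not overlap at 24 HAI, in either direction, for 34.2% of genes tested. Between 12 and 24 HAI the libraries did not overlap, in either direction, for 64.2% of genes tested in PBZ axes and 70.5% in control axes.

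GID1b2 had 18.3, 22.9 and 20.8 RPKM with PBZ at 12 HAI, against 19.8, 23.2 and 19.9 RPKM in control. At 24 HAI the values were 12.7, 10.3 and 12.2 RPKM with PBZ, against 12.5, 10.9 and 13.7 RPKM in control, and at 36 HAI they were 13.5, 14.8 and 13.2 RPKM with PBZ, against 11.1, 14.2 and 11.1 RPKM in control. The treatments overlapped at all 3 times, and the 12 HAI libraries again stood above all later ones. Most genes tested were likewise separated, in either direction, between 12 and 24 HAI.

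GID1b3 had 22.9, 20.9 and 18.5 RPKM with PBZ at 12 HAI, against 17, 19.4 and 20.7 RPKM in control, and 13.5, 11.9 and 15.0 RPKM with PBZ at 24 HAI, against 11.4, 10.9 and 13.5 RPKM in control. At 36 HAI it had 20.6, 18.5 and 20.6 RPKM with PBZ, against 15.4, 15.9 and 16.6 RPKM in control. The lowest PBZ library at 36 HAI lay above the highest control library of that time, and the PBZ mean of 19.9 RPKM was close to the 20.7 RPKM of PBZ axes at 12 HAI. PBZ and control did not overlap at 36 HAI, in either direction, for 15.8% of genes tested.

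**Figure D1:**
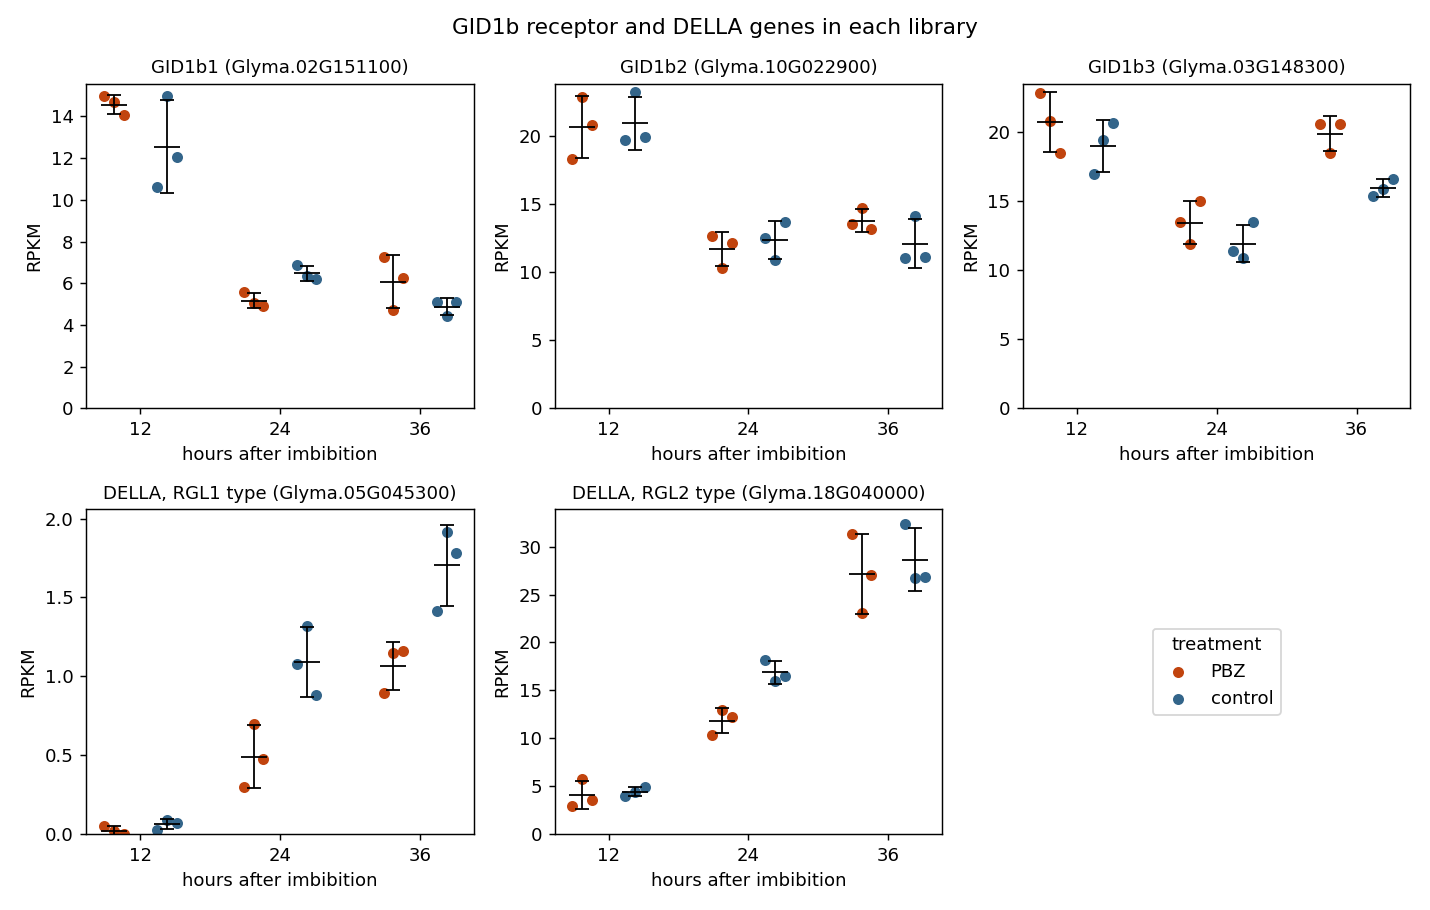
RPKM of the 5 genes in each library (points) against hours after imbibition, with PBZ to the left of control at each time; horizontal marks are means and bars are SD over 3 libraries. The 3 receptors were highest at 12 HAI in control, while both DELLA genes climbed to their highest levels at 36 HAI in either treatment.

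All 3 receptors fell between 12 and 24 HAI in either treatment. In PBZ axes, GID1b1 fell by 1.48 on the log2 scale (adjusted p = 0.000174) and was the receptor past both limits, as were 9.51% of genes tested in the lower direction. GID1b2 fell by 0.81 (adjusted p = 0.00198) and GID1b3 by 0.62 (adjusted p = 0.00644). The adjusted p limit was thus passed by 3 of 3 receptors, where 23.8% of the genes tested were called lower. In control axes the falls were 0.93 for GID1b1 (adjusted p = 0.00068), 0.75 for GID1b2 (adjusted p = 0.000766) and 0.67 for GID1b3 (adjusted p = 0.00152), again 3 of 3 against 27.7% of genes called lower. Without control replicate 1 at 12 HAI, or with median-ratio size factors, the fall of GID1b1 in control axes was past both limits (-1.04 in either case). In this step the 3 receptors kept the adjusted p limit with each library left out in turn. The drop of GID1b1 was larger in PBZ than in control axes by 0.55 (interaction -0.55, standard error 0.17), which did not pass the limit (adjusted p = 0.408).

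Between 24 and 36 HAI GID1b3 rose in PBZ axes by 0.57 (adjusted p = 0.00438) and in control axes by 0.42 (adjusted p = 0.0134). GID1b1 fell in control axes by 0.41 (adjusted p = 0.0186) and gave 0.21 in PBZ axes (95% interval -0.18 to 0.60, adjusted p = 0.313). Without control replicate 1 at 24 HAI the change of GID1b1 in control axes was -0.36 and its adjusted p 0.0597, past the limit no longer. GID1b2 gave 0.24 in PBZ axes (95% interval -0.0037 to 0.48, adjusted p = 0.0877) and -0.04 in control axes (95% interval -0.35 to 0.28). In control axes the adjusted p limit was passed in the lower direction by 27.0% of genes tested and in the higher direction by 20.7%.

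PBZ left the receptors within 2-fold of control at every time. At 12 HAI the differences on the log2 scale were 0.23 for GID1b1 (95% interval -0.11 to 0.57), -0.02 for GID1b2 (-0.33 to 0.28) and 0.12 for GID1b3 (-0.18 to 0.43), each with adjusted p = 0.999. At 24 HAI they were -0.32 for GID1b1 (-0.55 to -0.09, adjusted p = 0.1), -0.08 for GID1b2 (-0.36 to 0.20, adjusted p = 0.699) and 0.17 for GID1b3 (-0.11 to 0.45, adjusted p = 0.398). At 36 HAI each of the 3 means was above its control, by 0.29 for GID1b1 (-0.10 to 0.69, adjusted p = 0.662), 0.20 for GID1b2 (-0.08 to 0.48, adjusted p = 0.684) and 0.31 for GID1b3 (0.12 to 0.51, adjusted p = 0.348). None of these passed the adjusted p limit. The intervals reach up to 0.69 and down to -0.55. Both limits were passed by 0 of the 4 genes tested at 12 HAI and by 0 of the 5 at 24 and at 36 HAI, where 0.0102%, 0.918% and 0.128% of genes tested did.

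GID1b1 stood lower with PBZ at 24 HAI and higher at 36 HAI by the means, and the change of its PBZ effect between those times was 0.61 (95% interval 0.18 to 1.05). It did not pass the limit (adjusted p = 0.117), and the median of all genes tested moved by 0.13 in the same comparison. Over the 5 genes, 0 were called for a change of PBZ effect between 12 and 24 HAI and 0 between 24 and 36 HAI, where 0.0031% and 0.00894% of genes tested were called.

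**Figure D2:**
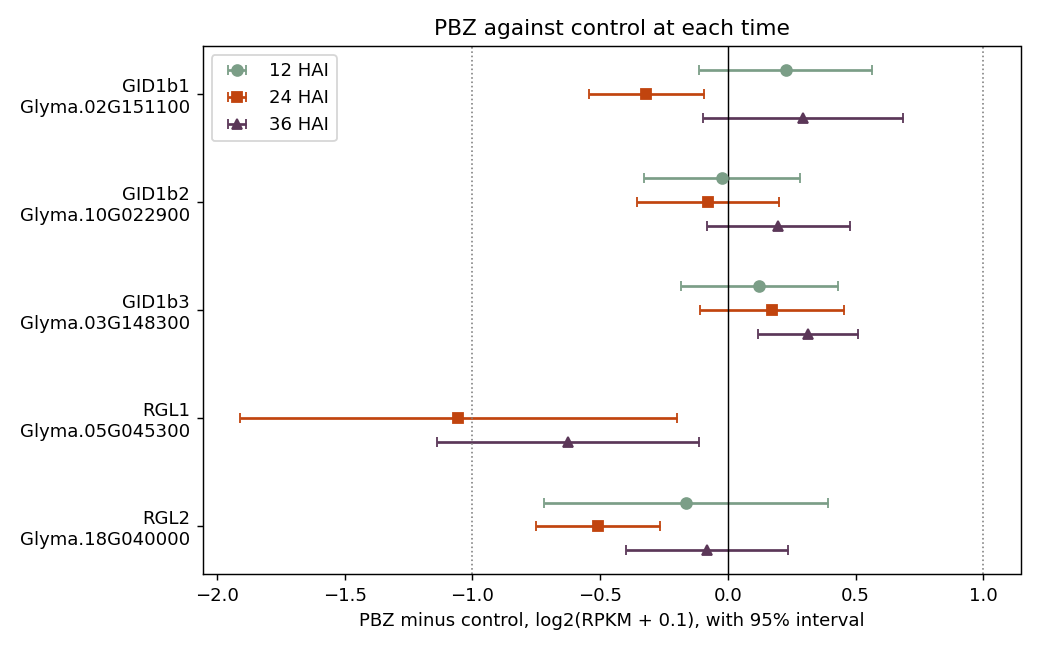
Difference between PBZ and control on the log2(RPKM + 0.1) scale for each gene at 12, 24 and 36 HAI, with 95% intervals from limma and dotted lines at a 2-fold change. The receptors lie within 2-fold of control, and both DELLA genes have their lowest value at 24 HAI; Glyma.05G045300 at 12 HAI was below the level tested.

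Shares within a library do not depend on how libraries are scaled against each other. They are given as a description, with no test. GID1b1 made up 26.1% ± 0.812 of summed GID1b RPKM with PBZ at 12 HAI and 23.8% ± 1.94 in control (SD, n = 3 each). At 24 HAI its share was 17.1% ± 1.67 with PBZ and 21.1% ± 2.19 in control, and at 36 HAI 15.2% ± 2.56 with PBZ and 14.9% ± 1.81 in control. At 24 HAI the highest PBZ library (18.5%) lay just below the lowest control library (18.6%). The share of GID1b3 ran the other way, with 37.0% ± 3.23 of the GID1b sum with PBZ at 12 HAI and 36.3% ± 2.78 in control, and 50.0% ± 1.42 with PBZ at 36 HAI and 48.5% ± 2.26 in control. At 24 HAI its share was 44.3% ± 2.25 with PBZ and 38.7% ± 1.66 in control, without overlap.

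The other receptors of the family, GID1c1 (Glyma.10G158000) and GID1c2 (Glyma.20G230600), are of the GID1c type. GID1c1 averaged 8.38, 12.8 and 16.97 RPKM with PBZ at 12, 24 and 36 HAI, and 8.97, 13.9 and 16.1 RPKM in control. It rose between 12 and 24 HAI, where the GID1b genes fell, by 0.62 in PBZ axes (adjusted p = 0.00607) and by 0.63 in control axes (adjusted p = 0.000923). GID1c2 rose by 0.53 in PBZ axes between those times (adjusted p = 0.0226), a call kept without PBZ replicate 2 or 3 at 12 HAI but not without any of the other 4 PBZ libraries (adjusted p = 0.0571 to 0.0719), and gave 0.12 in control axes (adjusted p = 0.407). The GID1b genes held 76.6% ± 3.61 of summed GID1 RPKM with PBZ at 12 HAI and 73.6% ± 0.569 in control, but 54.5% ± 2.45 with PBZ at 24 HAI and 55.5% ± 2.29 in control, and 58.4% ± 2.77 with PBZ at 36 HAI and 53.9% ± 2.27 in control. No library at 24 or 36 HAI reached the lowest share at 12 HAI (72.6%), and PBZ and control overlapped at all 3 times. The GID1b sum itself was 39.8 ± 1.75 RPKM with PBZ at 36 HAI and 32.96 ± 1.495 RPKM in control, without overlap.

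**Figure D3:**
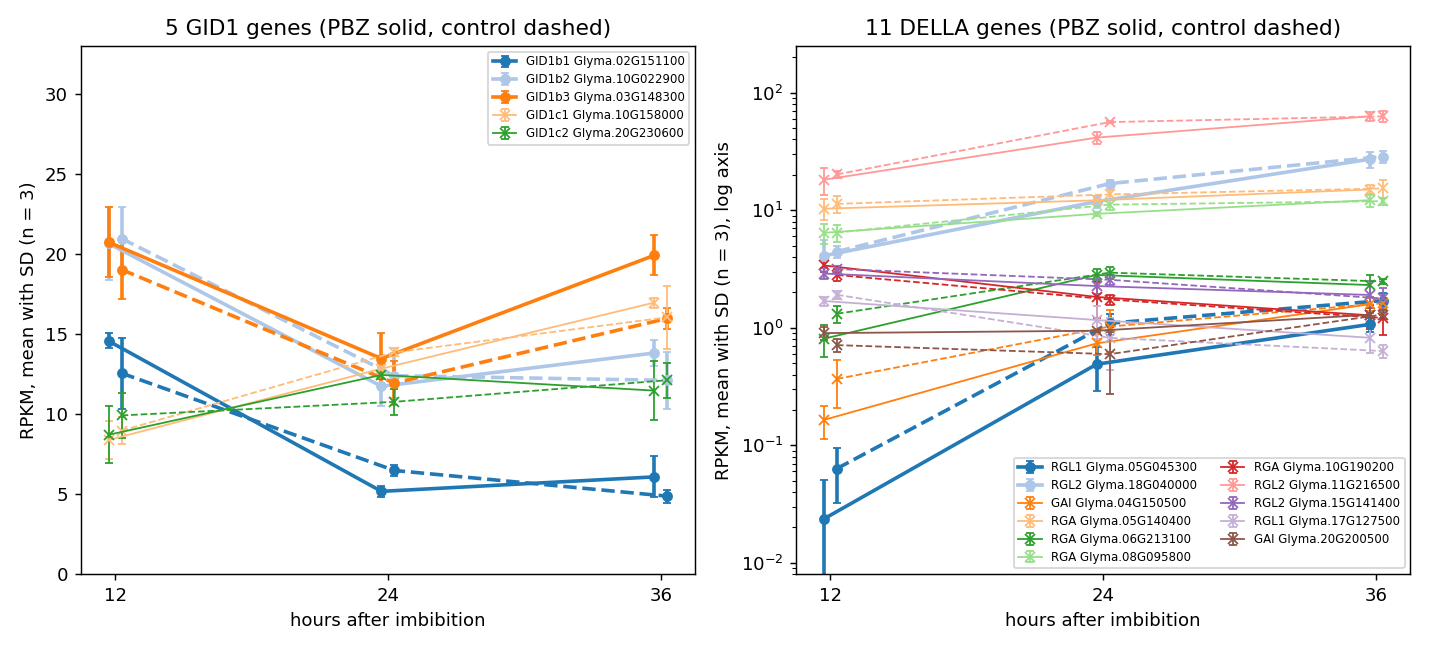
Mean RPKM with SD (n = 3) of the 5 GID1 genes (left, linear axis) and the 11 DELLA genes (right, log axis) against hours after imbibition, PBZ solid and control dashed, with thick lines and dots for the 5 genes described here. GID1b lines drop after 12 HAI where GID1c1 climbs, and the 2 RGL2-type genes Glyma.18G040000 and Glyma.11G216500 climb together; the lower bar of Glyma.05G045300 at 12 HAI runs off the log axis.

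Glyma.18G040000, the RGL2-type DELLA, climbed in both treatments and was the highest of the 5 genes at 36 HAI. It had 2.97, 5.71 and 3.62 RPKM with PBZ at 12 HAI, against 3.97, 4.43 and 4.96 RPKM in control. At 24 HAI it had 10.4, 12.9 and 12.2 RPKM with PBZ, against 18.2, 16.0 and 16.5 RPKM in control. At 36 HAI it had 31.3, 23.1 and 27.1 RPKM with PBZ, against 32.4, 26.7 and 26.8 RPKM in control. Each step in time separated the libraries fully, and PBZ and control were apart at 24 HAI and overlapped at 12 and 36 HAI. PBZ and control were apart at 24 HAI, in either direction, for 34.2% of genes tested. Full separation between times was usual. From 12 to 24 HAI 64.2% of genes tested showed it in PBZ axes and 70.5% in control axes. From 24 to 36 HAI the shares were 64.3% and 60.6%.

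Glyma.18G040000 rose in every time comparison. In PBZ axes the rise was 1.56 between 12 and 24 HAI (standard error 0.24, adjusted p = 0.00144) and 1.18 between 24 and 36 HAI (standard error 0.13, adjusted p = 0.000721). In control axes it was 1.90 between 12 and 24 HAI (standard error 0.11, adjusted p = 1.26e-05) and 0.76 between 24 and 36 HAI (standard error 0.10, adjusted p = 0.00179). The mean at 36 HAI was 6.62 times that at 12 HAI with PBZ and 6.44 times that at 12 HAI in control. The larger early step was in control and the larger late step in PBZ axes, and neither difference between the treatments passed the limit (interactions -0.35 with adjusted p = 0.691 and 0.43 with adjusted p = 0.188).

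Glyma.05G045300, the RGL1-type DELLA, was barely detected at first. At 12 HAI it had 0.0534, 0.0175 and 0 RPKM with PBZ, against 0.0285, 0.0886 and 0.0729 RPKM in control. At 24 HAI it had 0.296, 0.695 and 0.479 RPKM with PBZ, against 1.08, 1.32 and 0.879 RPKM in control, and at 36 HAI 0.893, 1.15 and 1.16 RPKM with PBZ, against 1.42, 1.91 and 1.78 RPKM in control. PBZ and control did not overlap at 24 and 36 HAI, and overlapped at 12 HAI, where the values rest on very few reads. Of all genes tested, 34.2% at 24 HAI and 15.8% at 36 HAI did not overlap, in either direction. Scaled by relative depth, with the smallest value above 0 taken as 1 read, the PBZ libraries at 12 HAI together held about 3 reads and the control libraries about 10.

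Between 12 and 24 HAI Glyma.05G045300 was not tested in PBZ axes, where both means were below 1 RPKM, and without the filter on low values it gave 2.22 on the log2 scale there (95% interval 1.39 to 3.05, adjusted p = 0.0027). In control axes it rose by 2.87 between those times (standard error 0.38, adjusted p = 0.00042). In reads per depth, the level at 24 HAI was 29.3 times that at 12 HAI with PBZ (95% interval 9.53 to 146) and 15.3 times that at 12 HAI in control (8.01 to 32.6), and these exact intervals cover counting error only. Between 24 and 36 HAI it rose by 1.03 in PBZ axes (adjusted p = 0.0354) and gave 0.60 in control axes (95% interval 0.07 to 1.13, adjusted p = 0.061). The rise in PBZ axes passed both limits in 1 of the 6 fits that left out a library, the fit without PBZ replicate 2 at 24 HAI (1.28). Without PBZ replicate 1 or 3 at 24 HAI, or replicate 1, 2 or 3 at 36 HAI, its adjusted p was 0.0763, 0.0724, 0.0559, 0.0863 or 0.0982.

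Both limits were passed upward between 12 and 24 HAI by the 1 DELLA gene tested in PBZ axes, against 17.1% of genes tested, and by 2 of 2 in control axes, against 18.5%. Without control replicate 2 at 24 HAI, Glyma.05G045300 averaged less than 1 RPKM and was not tested. Between 24 and 36 HAI they were passed upward by 2 of 2 in PBZ axes, against 14.1% of genes, while in control axes 0 of the 5 genes passed both limits, against 13.5%. On the adjusted p limit alone, GID1b3 and both DELLA genes were higher at 36 HAI in PBZ axes, 3 of 5 against 28.1% of genes tested. Glyma.05G045300 entered the control step from 12 to 24 HAI only through its later mean (1.09 RPKM, against 0.0633 RPKM). In PBZ axes it entered the step from 24 to 36 HAI only through its later mean (1.07 RPKM, against 0.490 RPKM). The filter thus set its direction, and its place in these counts is no support for a rise.

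For both DELLA genes, all 3 PBZ libraries lay below all 3 control libraries at 24 HAI, where 34.2% of genes tested did not overlap, in either direction. The difference was -0.51 for Glyma.18G040000 (95% interval -0.75 to -0.27) with an adjusted p of 0.0495, so that it passed the adjusted p limit but not the 2-fold limit, and it was the only one of the 5 genes to do so, where 1.22% of genes tested were called lower. That call was held narrowly, since its adjusted p ran from 0.0367 to 0.166 over 16 alternatives and was within the limit in 2 of them. It was lost without any of the 6 libraries, at 0.0792, 0.0903 or 0.069 without PBZ replicate 1, 2 or 3 and at 0.152, 0.123 or 0.129 without control replicate 1, 2 or 3. The direction was kept in all 16. With the 63 genes named above taken out and RPKM rescaled, the difference was -0.51 and the adjusted p 0.052.

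For Glyma.05G045300 the difference at 24 HAI was -1.06 (95% interval -1.91 to -0.20), past the 2-fold limit but not the adjusted p limit (adjusted p = 0.128). The gene was tested there only through its control mean (1.09 RPKM, against 0.490 RPKM with PBZ), so the filter set its direction. The study called this gene PBZ-down at 24 HAI from the same libraries, so the low PBZ values are not independent evidence. At 36 HAI the differences were -0.63 for Glyma.05G045300 (-1.14 to -0.11, adjusted p = 0.478) and -0.08 for Glyma.18G040000 (-0.40 to 0.23, adjusted p = 0.886), and at 12 HAI Glyma.18G040000 gave -0.16 (-0.72 to 0.39, adjusted p = 0.999). The share of the 63 genes moved with treatment at 24 HAI, and its part in the differences beyond the rescaling was not tested.

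Counted over the 5 genes, PBZ and control did not overlap for 3 at 24 HAI (GID1b1 and both DELLA genes, all lower with PBZ), where 34.2% of genes tested did not overlap. At 36 HAI they did not overlap for 2 (GID1b3, higher with PBZ, and Glyma.05G045300, lower), against 15.8% of genes, and at 12 HAI for 0 of the 4 tested, against 10.6%. The count at 24 HAI includes Glyma.05G045300, which was tested there only through its control mean. Since the 5 genes were chosen with earlier results of these data known, these counts are a description.

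The study lists 9 other DELLA genes. Glyma.11G216500, also of RGL2 type and the most abundant DELLA, averaged 18.2, 41.5 and 63.01 RPKM with PBZ at 12, 24 and 36 HAI, and 20.2, 56.2 and 62.9 RPKM in control. It rose between 12 and 24 HAI by 1.21 in PBZ axes (adjusted p = 0.00208) and by 1.48 in control axes (adjusted p = 8.16e-06), and its PBZ difference at 24 HAI of -0.45 (adjusted p = 0.0584) resembled that of Glyma.18G040000 in size. Of the 9 genes, 8 were tested at 24 HAI, of which 6 were lower and 2 higher with PBZ, with a median of -0.17 beside -0.07 over all genes tested, and 0 passed the adjusted p limit. The second RGL1-type gene, Glyma.17G127500, had means of 1.69, 1.16 and 0.822 RPKM with PBZ at 12, 24 and 36 HAI, and 1.91, 0.821 and 0.634 RPKM in control. It fell by 1.20 between 12 and 24 HAI in control axes (adjusted p = 0.00865).

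In control axes between 12 and 24 HAI, 3 of the 8 other DELLA genes tested rose past both limits, against 18.5% of all genes tested, and 1 of the 8 fell past both, against 9.02%. Those that rose were Glyma.04G150500 (GAI type, 1.27), Glyma.06G213100 (RGA type, 1.11) and Glyma.11G216500, and Glyma.17G127500 fell. Of these, Glyma.04G150500 was tested only through its mean at 24 HAI (1.025 RPKM, against 0.367 RPKM). Glyma.17G127500 was tested only through its mean at 12 HAI (1.91 RPKM, against 0.821 RPKM). The call of Glyma.04G150500 was kept in 3 of the 5 fits that left out a library and tested it, and its adjusted p was 0.0571 or 0.0708 without control replicate 2 or 3 at 12 HAI. In PBZ axes Glyma.06G213100 rose by 1.71 (adjusted p = 0.00136), tested only through its mean at 24 HAI (2.815 RPKM, against 0.8075 RPKM). Glyma.08G095800 (RGA type) passed the adjusted p limit upward in PBZ (0.55) and control axes (0.79), and Glyma.10G190200 (RGA type) passed it downward, at -0.90 in PBZ and -0.66 in control axes. In PBZ axes each of these calls was kept in 3 of the 6 fits that left out a library. That of Glyma.08G095800 was lost without PBZ replicate 1 at 12 HAI or replicate 2 or 3 at 24 HAI (adjusted p = 0.0522, 0.0624 or 0.0771), and that of Glyma.10G190200 without PBZ replicate 2 at 12 HAI or replicate 2 or 3 at 24 HAI (0.0532, 0.0657 or 0.0644). Condition means ran from 10.3 to 15.3 RPKM for Glyma.05G140400 (RGA type), from 1.77 to 3.16 RPKM for Glyma.15G141400 (RGL2 type) and from 0.596 to 1.30 RPKM for Glyma.20G200500 (GAI type).

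As a share of the summed RPKM of 11 DELLA genes, Glyma.18G040000 made up 8.26% ± 1.47, 13.9% ± 0.588 and 21.2% ± 1.495 with PBZ at 12, 24 and 36 HAI, and 8.43% ± 0.531, 15.5% ± 1.17 and 22.1% ± 0.966 in control. Its PBZ and control shares did not overlap at 24 HAI and overlapped at 12 and 36 HAI. Glyma.11G216500 exceeded it 4.52-fold with PBZ and 4.57-fold in control at 12 HAI, but 2.34-fold with PBZ and 2.20-fold in control at 36 HAI, so that Glyma.18G040000 gained on its more abundant relative in both treatments. Glyma.05G045300 never exceeded 1.64% of the DELLA sum in any library.

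Set against each other within a library, summed receptor RPKM exceeded summed DELLA RPKM at 12 HAI and lay below it later. The ratio of summed GID1 to summed DELLA RPKM was 1.53 ± 0.265 with PBZ at 12 HAI and 1.35 ± 0.0617 in control. At 24 HAI it was 0.658 ± 0.0751 with PBZ and 0.510 ± 0.0128 in control, and the lowest PBZ library (0.592) lay above the highest control library (0.522). Summed GID1 RPKM was then 55.7 ± 2.62 with PBZ and 55.5 ± 2.57 in control, while summed DELLA RPKM was 85.1 ± 6.36 and 108.7 ± 3.25. Glyma.11G216500 made up 48.7% ± 2.67 of that DELLA sum with PBZ and 51.75% ± 1.36 in control. At 36 HAI the ratio was 0.539 ± 0.0598 with PBZ and 0.476 ± 0.0522 in control, with overlapping libraries. The GID1b sum over Glyma.18G040000 was 14.6 ± 4.36, 2.60 ± 0.473 and 1.48 ± 0.162 with PBZ, and 11.9 ± 1.20, 1.83 ± 0.176 and 1.16 ± 0.168 in control, at 12, 24 and 36 HAI.

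**Figure D4:**
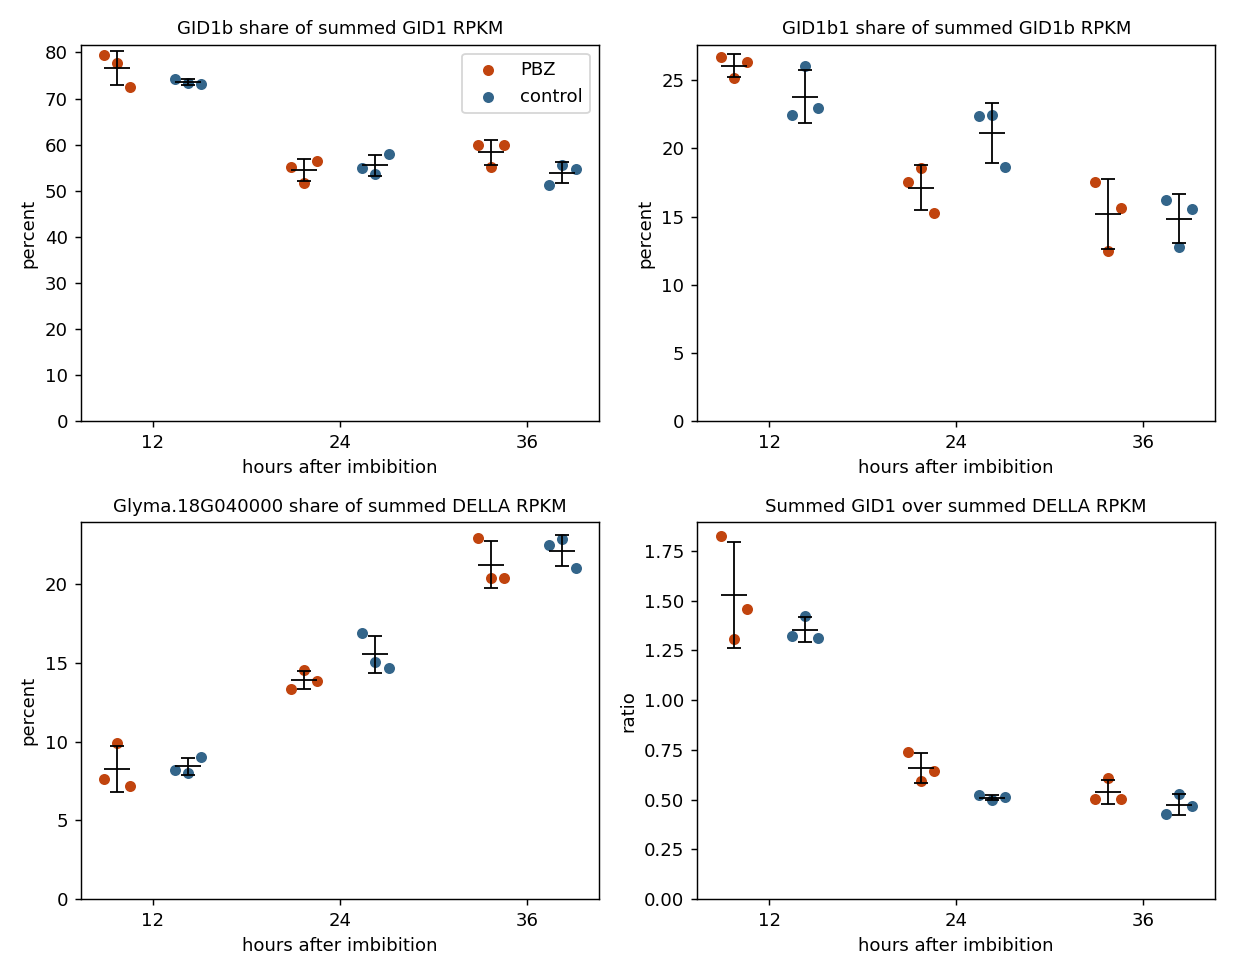
Shares (percent) and a ratio computed within each library (points), with means and SD over 3 libraries, against hours after imbibition and with PBZ left of control. The GID1b share of GID1 transcripts and the GID1 to DELLA ratio dropped after 12 HAI in either treatment, while the share of Glyma.18G040000 was higher at each later time; at 24 HAI the ratio was 0.592 to 0.740 with PBZ and 0.496 to 0.522 in control.

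Between 12 and 36 HAI Glyma.18G040000 passed the 3 receptors in mean level, and Glyma.05G045300 was the lowest of the 5 genes at every time. At 12 HAI GID1b2 and GID1b3 led with overlapping libraries (20.7 and 20.7 RPKM with PBZ, 21.0 and 19.03 RPKM in control), followed by GID1b1, Glyma.18G040000 and Glyma.05G045300, each apart from the next. At 24 HAI in PBZ axes GID1b3 (13.5 RPKM), Glyma.18G040000 (11.9 RPKM) and GID1b2 (11.7 RPKM) overlapped, whereas in control axes Glyma.18G040000 (16.9 RPKM) was apart from and above GID1b2 (12.4 RPKM) and GID1b3 (11.9 RPKM), which overlapped. At 36 HAI the order was Glyma.18G040000, GID1b3, GID1b2, GID1b1 and Glyma.05G045300 in both treatments, with no overlap between neighbours.

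Genes with the most similar course were sought by Pearson's r of log2(RPKM + 0.1) over the 18 libraries, a description in which the libraries share 3 times and 2 treatments. Their identifiers carry no name in the sources used here. For GID1b1 these were Glyma.10G025000 (r = 0.981) and Glyma.08G095600 (r = 0.980), and for GID1b2 Glyma.13G287000 (r = 0.970) and Glyma.05G148100 (r = 0.969). GID1b3 had the weakest matches, Glyma.12G214700 (r = 0.918) and Glyma.18G215700 (r = 0.906). For Glyma.18G040000 they were Glyma.06G042900 (r = 0.993) and Glyma.20G189600 (r = 0.993), the second of which averaged 3.84, 48.2 and 182.4 RPKM with PBZ and 4.31, 69.6 and 193.6 RPKM in control at 12, 24 and 36 HAI. For Glyma.05G045300 they were Glyma.15G100300 (r = 0.988) and Glyma.02G142600 (r = 0.986), the second of which averaged 3.065, 12.6 and 21.4 RPKM with PBZ and 4.41, 23.0 and 27.6 RPKM in control.

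Among 24 other genes of GA synthesis, inactivation and transport from the study's list, 0 of the 16 tested at 12 HAI and 0 of the 22 tested at 36 HAI passed both limits between PBZ and control. Over all genes tested, 0.0102% and 0.128% did at those times. At 24 HAI 1 of 20 did, against 0.918% of all genes tested. This was KAO2 (Glyma.15G135200), which encodes an ent-kaurenoic acid oxidase. It had 7.77 ± 1.99 RPKM with PBZ and 15.8 ± 2.13 RPKM in control (SD, n = 3 each), a difference of -1.04 (adjusted p = 0.0474). Its adjusted p ran from 0.0172 to 0.142 over 16 alternatives and was within the limit in 8, and of the fits that left out a library only that without PBZ replicate 1 kept it, at 0.0478.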

How the data were processed

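RPKM values were deposited by the authors for 56044 genes in 18 libraries, made after removal of rRNA reads with Novoalign 3.06.05 (genome Wm82.a2.v1) and Cufflinks 2.1.1 with its first-strand setting and bias correction. The library kit does not mark strand, and the effect of that setting was not checked. Multi-mapping reads were dropped, which lowers values of genes with near-identical copies. All columns were matched to samples by name, with 0 left unmapped, and no counts were used. The study's own calls came from cuffdiff, which was not rerun.

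PBZ and control, and neighbouring times, were compared with limma 3.58.1 in R 4.3.3 on log2(RPKM + 0.1), with a variance trend, Benjamini-Hochberg adjustment over all genes tested and a minimum of 1 RPKM in either group mean. Interactions used 12 samples. The fit was tested on simulated data. Levels, shares and likeness were computed in Python 3.11.15 with numpy 2.4.6 and pandas 2.3.3, and plots with matplotlib 3.10.9. RPKM values come without an estimate of their counting error, so precision was taken from the spread of 3 replicates and the variance trend over genes.

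The 5 genes and all gene lists were chosen with earlier results of these data known. Named besides them are the other GID1 and DELLA genes, other genes of the study's GA list past both limits, the RT-qPCR reference genes, and 2 genes per member with the highest Pearson r. The RefSeq gene table for Glycine_max_v4.0 matched 0 identifiers. No sequence or coordinate is given.

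Alternatives were pseudocounts of 1 and 0.01, no filter, a filter at 5 RPKM, scaling by quantiles or by median-ratio size factors, omission of the 63 genes, a joint fit of all 18 samples, a block for replicate number, no variance trend, no minimum change and omission of each library. Ratios of group means were an addition chosen after seeing the data.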

Additional observations from a re-analysis of the deposited data

How the results depend on the processing

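Counts of the 5 genes past both limits moved in 5 comparisons. With no minimum change, the count was 1 for PBZ against control at 24 HAI, 4 for PBZ axes and 5 for control axes between 12 and 24 HAI, and 3 for control axes between 24 and 36 HAI. It was 1 for PBZ axes between 24 and 36 HAI with a pseudocount of 1, a filter at 5 RPKM, quantile normalization or the 63 genes left out, and 1 for control axes between 12 and 24 HAI with the first 3 of these. The filter at 5 RPKM leaves Glyma.05G045300 untested by its construction. Leaving out each library gave 1 to 2 in PBZ axes between 24 and 36 HAI and 1 to 3 in control axes between 12 and 24 HAI. Of 767 single values under alternatives, 727 kept their direction and call, 13 gained a call, 8 lost it and 19 changed sign. Most results of the 5 genes had no call to begin with, so a kept call mostly means uncalled in either fit. Of the called results, the rise of Glyma.05G045300 in PBZ axes between 24 and 36 HAI kept the adjusted p limit in 9 of 14 alternatives. For 37 changes of the other named genes past the adjusted p limit, 539 of 579 values under alternatives kept that limit, 40 lost it and 0 changed sign.

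The sign changes were of uncalled values, and their cause was not tested. GID1b2 in control axes between 24 and 36 HAI was 0.031 with quantile normalization, 0.025 with median-ratio size factors and -0.156 to 0.038 with libraries left out. The PBZ effect of Glyma.05G045300 at 24 minus 12 HAI was 0.19 with a pseudocount of 0.01, against -0.65. With libraries left out, PBZ against control gave -0.099 to 0.061 for GID1b2 and -0.42 to 0.038 for Glyma.18G040000 at 12 HAI, -0.17 to 0.0092 for GID1b2 at 24 HAI and -0.19 to 0.030 for Glyma.18G040000 at 36 HAI. The PBZ effect at 24 minus 12 HAI ran from -0.14 to 0.032 for GID1b2 and from -0.034 to 0.14 for GID1b3.

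Same-numbered samples deviated together (r above 0.1) in 6 of 9 pairs between PBZ and control and in 1 of 12 pairs between times, and in no comparison did every pair, so the number was not taken as pairing. Of the 9 pairs between PBZ and control, 8 correlated best with their own number, all of those at 24 and 36 HAI among them. Of the 12 pairs between times, 7 did so, all of those in control axes among them. Both are a hint from the data and not the design. With a block for the replicate number, the count of the 5 genes past both limits was 0 for PBZ against control at each time and 2 for PBZ axes in both steps of time, as without it. Over all genes, 4, 369 and 77 passed between PBZ and control at 12, 24 and 36 HAI with the block, against 3, 286 and 42 without it. Under the block the adjusted p of Glyma.18G040000 at 24 HAI was 0.0559.

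Counts over all genes depended on the fit. At 12 HAI they were 18 with all 18 samples in a joint fit, 6 without the variance trend and 0 to 7 with a library left out. At 24 HAI the same settings gave 21, 178 and 126 to 298, and at 36 HAI 48, 16 and 0 to 17, with 26 where no filter was used. With no minimum change 1065 genes passed at 24 HAI. Between times, the filter at 5 RPKM gave 4984 and 3294 in PBZ axes and 5089 and 2351 in control axes, against 8384, 6142, 8727 and 4428. Without control replicate 2 at 12 HAI, 94 genes were called for a change of PBZ effect between 12 and 24 HAI, against 1. Without control replicate 3 at 36 HAI, 95 were called between 24 and 36 HAI, against 3.

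Quantile normalization moved the median of all genes in the step from 12 to 24 HAI by -0.11 in PBZ axes and -0.14 in control axes, and median-ratio size factors by -0.12 in control axes. The level order of the 5 genes was the same in all 6 conditions with median-ratio size factors. That check has little force, since 1 factor per library cannot change the order of genes within a library. With a pseudocount of 1, the most alike gene stayed first for 3 of the 5 genes.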

Other observations

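Between 12 and 24 HAI, 8 of 19 other GA genes tested rose and 2 fell past both limits in PBZ axes, where 17.1% of all genes tested rose and 9.51% fell, and 6 of 19 rose and 2 fell in control axes, where 18.5% rose and 9.02% fell. Between 24 and 36 HAI, 8 of 23 rose and 2 fell in PBZ axes, where 14.1% of all genes rose and 4.46% fell, and 5 of 21 rose and 2 fell in control axes, where 10.6% rose and 2.88% fell. Some of these genes entered a step only through their higher mean, so the filter set their direction. Their place in the counts is no support for a change. Between 12 and 24 HAI they include Glyma.03G154700 (CPS), at 0.245 and 1.26 RPKM in PBZ axes and 0.350 and 1.91 RPKM in control axes. Between 24 and 36 HAI they include Glyma.15G002200 (KO1), at 0.985 and 2.24 RPKM in PBZ axes. KAO2 rose in all 4 steps, with 48.6 ± 3.04 RPKM with PBZ at 36 HAI and 61.0 ± 6.57 RPKM in control (SD, n = 3 each).

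Of the GA 2-oxidase genes, which inactivate GA, 4 of 7 tested rose and 2 fell past both limits in PBZ axes between 12 and 24 HAI, and 3 of 6 rose and 2 fell in control axes. In PBZ axes Glyma.07G236100 (0.0769 and 1.64 RPKM) and Glyma.15G248400 (0.365 and 2.655 RPKM) were tested only through their means at 24 HAI. Glyma.10G010700 was tested only through its means at 12 HAI (2.02 and 0.296 RPKM with PBZ, 1.35 and 0.368 RPKM in control). The filter thus set the direction of these genes in those steps. GA2OX1 (Glyma.13G259400) rose by 2.00 in PBZ axes (adjusted p = 0.00232) and by 2.37 in control axes (adjusted p = 0.00152), while GA2OX2 (Glyma.15G093900) fell by 1.04 in PBZ axes (adjusted p = 0.0161) and by 1.72 in control axes (adjusted p = 0.00434). Without PBZ replicate 3 at 12 HAI the change of GA2OX2 in PBZ axes was -0.98 (adjusted p = 0.0523). GA3OX1 (Glyma.15G012100), of the type that makes active GA, fell between 24 and 36 HAI by 1.75 in PBZ axes (adjusted p = 0.000671) and by 2.37 in control axes (adjusted p = 0.00349). Its relative Glyma.13G361700 gave 0.09 in PBZ axes (adjusted p = 0.441) and -0.08 in control axes (adjusted p = 0.611). GA20OX2 (Glyma.10G241100), which acts a step before GA3OX, rose between those times by 2.12 in PBZ axes (adjusted p = 0.00127) and by 1.90 in control axes (adjusted p = 0.00128). It was tested only through its means at 36 HAI, since those at 24 HAI were 0.83 RPKM with PBZ and 0.925 RPKM in control. Its relative Glyma.09G149200 gave -0.51 in PBZ axes (adjusted p = 0.0637) and fell by 0.80 in control axes (adjusted p = 0.000904). These 2 relatives were named after their values were seen.

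The RT-qPCR reference gene Bic-C2 (Glyma.03G064800) gave 0.25 in PBZ axes between 12 and 24 HAI (adjusted p = 0.0751) and rose by 0.46 in control axes (adjusted p = 0.00607), where the GID1b genes fell.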
